A study of Mus musculus with 4 samples.

Results

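The miR-15/16 family was examined in mouse bone marrow-derived macrophages (BMDMs) as 4 mature miRNAs of 1979 in the deposited small RNA table: mmu-miR-15a-5p, mmu-miR-15b-5p, mmu-miR-16-5p and mmu-miR-195a-5p, written without the species prefix hereafter. The members were chosen by name. Where a mature miRNA has several precursors, and so several lines in the table, the line with the highest summed count was taken, which among the 4 concerns miR-16-5p alone (its mir-16-1 line). Small RNA was sequenced from 4 libraries of resting BMDMs, grown from bone marrow in M-CSF (10 ng/ml, 8 to 9 days) and then left 16 h without LPS. The mice were 6 to 7 months old, on a mixed 129/B6 background, and came from lines made in embryonic stem cells. The wild-type libraries, labelled A and B, were taken as separate cultures (WT A and WT B). The KO library came from mice whose miR-146a precursor is deleted. The 3′F library came from homozygous mice in which the 3′ (non-seed) parts of the miR-146a duplex strands are exchanged while the seed is kept. Each genotype is labelled with 3 mice, and whether their cells were pooled for a library is not stated. No test was run, since each mutant has 1 library, and sizes are given with counting error and with the spread of both WT libraries.

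miRNAs guide Argonaute proteins to messenger RNAs, mostly through the seed, bases 2 to 8 of the mature strand, and lower the stability and translation of their targets. The miR-15/16 family is known as a brake on proliferation and survival. Its targets include G1 cyclins, cyclin-dependent kinases and the survival factor BCL2, and loss of the miR-15a/16-1 locus is a frequent lesion in human chronic lymphocytic leukaemia. One hairpin can yield a mature miRNA from each arm, named 5p and 3p, and one arm usually prevails.

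The 4 members are shown because they share 1 seed and differ only behind it, which decides how reads can be told apart between them. The sequences are from RefSeq (GRCm38.p6), 5′ to 3′, with the seed in capitals.
miR-15a-5p: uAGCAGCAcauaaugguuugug
miR-15b-5p: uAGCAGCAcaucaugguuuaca
miR-16-5p: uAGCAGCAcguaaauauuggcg
miR-195a-5p: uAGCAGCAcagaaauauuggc

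All 4 begin with the same 9 bases, uagcagcac, and are 21 or 22 bases long. miR-16-5p and miR-195a-5p are the closest pair, with 2 differences over 21 positions (G10A and U11G, from miR-16-5p to miR-195a-5p, counted from the 5′ end). miR-15a-5p and miR-15b-5p differ at 4 of 22 positions (A12C, G20A, U21C and G22A, from 15a to 15b). miR-15b-5p and miR-16-5p lie furthest apart, with 8 differences over 22 positions. Sequence therefore divides the family into a 15a/15b pair and a 16/195a pair, whereas the genome pairs 15a with 16 and 15b with 16.

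The members come from 5 hairpins at 3 loci (GENCODE vM21, GRCm38). Mir15a (chr14:61632027-61632110) and Mir16-1 (chr14:61631880-61631972) lie on the minus strand, 54 bases apart, in intron 4 of the transcript Dleu2-201, a long non-coding RNA. Mir15b (chr3:69009772-69009835) and Mir16-2 (chr3:69009902-69009996) lie on the plus strand, 66 bases apart, in intron 5 of Smc4-201, whose gene encodes a condensin subunit. Both pairs are on the strand of their host gene. Mir195a (chr11:70235042-70235135, plus strand) overlaps no annotated gene and starts 241 bases after Mir497, the hairpin of miR-497a. Mir16-1 and Mir16-2 yield the same miR-16-5p, so 5p reads cannot be assigned to either locus, but their 3p strands differ.

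The hairpins of mir-16-1 and mir-16-2 are shown next because they carry 1 shared 5p strand (first capitals) and distinct 3p strands (second capitals), all from RefSeq on GRCm38.p6, mir-16-1 from the minus strand and mir-16-2 from the plus strand.
mir-16-1: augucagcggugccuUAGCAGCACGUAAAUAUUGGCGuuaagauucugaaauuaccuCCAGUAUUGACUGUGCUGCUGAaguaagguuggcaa
mir-16-2: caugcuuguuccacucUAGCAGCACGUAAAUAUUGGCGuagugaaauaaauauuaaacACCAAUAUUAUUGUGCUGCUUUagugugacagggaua

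Values are RPM, the counts assigned to a miRNA per 1000000 counts in the library. The libraries held 17073442 (WT A), 11410940 (WT B), 19087640 (KO) and 16194595 (3′F) counts, and 3 counts, taken as the limit that a count of 0 allows, equal 0.176, 0.263, 0.157 and 0.185 RPM. The targeted miRNA itself, miR-146a-5p, had 6253 and 5485 RPM in the WT libraries but 13.4 RPM in the KO and 6.64 RPM in the 3′F library, as their labels call for. The 6 myeloid markers summed to 382738 and 344277 RPM in WT and to 336758 and 357292 RPM in KO and 3′F, nearly all of it the widely expressed miR-21a-5p. The other 5, miR-223-3p among them, summed to 3711 and 2893 RPM in WT, 3106 in KO and 2911 in 3′F. Of all 6, 3 lay below and 2 above both WT libraries in KO, and 2 below and none above in 3′F. These counts stand beside 39.4% below and 37.8% above in KO among the 251 miRNAs with a mean of at least 10 RPM. In 3′F the shares of the 251 were 44.2% below and 22.7% above, so counts over 6 markers do not set them apart. Defining markers of other cell types were low by comparison. The 4 erythroid miRNAs (miR-486a-5p, miR-486b-5p, miR-451a and miR-144-3p, of which miR-486b-5p was most abundant) summed to 170 and 159 RPM in WT and to 70.4 and 80.3 RPM in KO and 3′F. The 5 stromal markers, with miR-143-3p the most abundant, summed to 10.5, 10.7, 7.51 and 7.19 RPM in WT A, WT B, KO and 3′F. The 2 endothelial strands of miR-126a summed to 11.1, 10.2, 14.0 and 11.1 RPM, and the lymphoid miR-150-5p stood at 2.93, 2.80, 2.51 and 1.54 RPM.

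In resting macrophages most reads of the family came from miR-16-5p and miR-15b-5p, with about 10 times fewer from miR-15a-5p than from miR-15b-5p and about 2 RPM from miR-195a-5p. Adapter ligation depends strongly on the sequence of a small RNA, so every order of different miRNAs or strands given here is one of reads, which may not be that of their amounts in the cell. miR-16-5p, the member with the most reads, was at 646 RPM in WT A and 616 in WT B, against 581 in the KO and 585 in the 3′F library. Both mutants lay below both WT libraries, at 92.0% (KO) and 92.8% (3′F) of a WT mean of 630.9 ± 21.3 RPM (SD, n = 2). With TMM sizes 3′F lay between the WT libraries (669 between 635.7 and 734), and with DESeq2 size factors both mutants did (587 in KO and 602 in 3′F, between 583 and 656). It ranked 70, 77, 78 and 73 among the miRNAs of WT A, WT B, KO and 3′F.

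miR-15b-5p reached 434 (WT A) and 465 RPM (WT B), with 413 for KO and 388 for 3′F (WT 449 ± 21.9, SD, n = 2). Here too both mutants lay below both WT libraries, 3′F lower than KO in RPM but not with TMM sizes (441 in KO and 443.5 in 3′F). miR-15a-5p, which comes from the Dleu2 locus only, was at 42.9 RPM in WT A and 37.4 in WT B, against 42.7 in the KO and 34.1 in the 3′F library (WT 40.1 ± 3.88, SD, n = 2). KO lay between the WT libraries and 3′F below both. With TMM sizes, however, 3′F lay between them (38.95, between 38.59 and 48.75). With RPM taken over 1 line per miRNA, KO lay above both (47.09 against 46.59 and 40.95). In the deposited RPM the 95% Wilson interval of 3′F (31.4 to 37.0 RPM) overlapped that of WT B (34.0 to 41.1). These intervals cover counting error only, since amplified reads are not independent molecules.

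miR-195a-5p was at 1.66 RPM in WT A and 2.40 in WT B, against 2.18 in the KO and 1.85 in the 3′F library (WT 2.03 ± 0.523, SD, n = 2). These levels rest on 28.33, 27.33, 41.67 and 30 counts, and both mutants lay between the WT libraries. The order of the members, 16, 15b, 15a and 195a from highest to lowest, was the same in each of the 4 libraries, and no neighbouring pair in that order overlapped. With 1 line per miRNA the closest neighbours, miR-16-5p and miR-15b-5p, differed 1.49-fold and 1.32-fold in the WT libraries, 1.41-fold in the KO and 1.51-fold in the 3′F library. The gap is wider with both lines of miR-16-5p summed, at a WT mean of 1258 RPM against 449 for miR-15b-5p. miR-15b-5p exceeded miR-15a-5p 10.1- and 12.4-fold in WT, 9.66-fold in KO and 11.4-fold in 3′F.

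**Figure D1:**
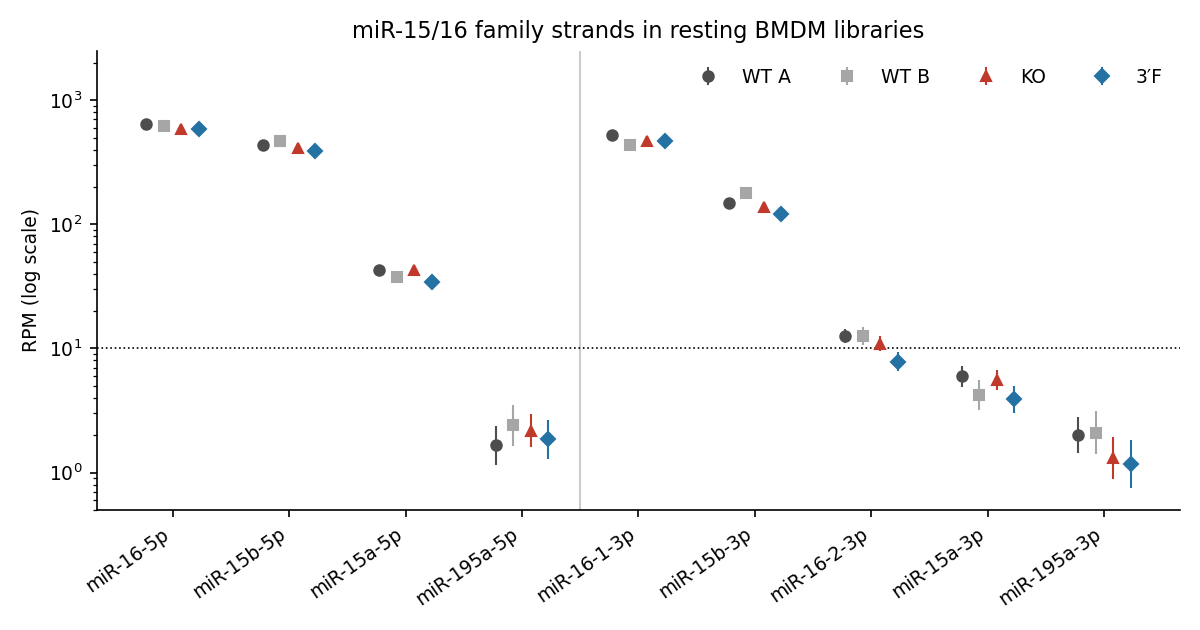
RPM (log axis) of the 4 members (left of the grey line) and of the 3p strands of their hairpins (right), 1 point per library with its 95% Wilson interval for counting error, and a dotted line at the minimum of 10 RPM used for calls. The 4 members keep the same order in all libraries, from miR-16-5p at 581 to 646 RPM down to miR-195a-5p at 1.66 to 2.40 RPM, and the 3p strands run from miR-16-1-3p at 435 to 519 RPM to miR-195a-3p at 1.17 to 2.10 RPM.

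The value of miR-16-5p depends on how its reads were divided between lines. miR-16-5p has lines for mir-16-1 and mir-16-2, and the second gave nearly the same values as the first, with 641, 612, 580 and 582 RPM in WT A, WT B, KO and 3′F. The deposited counts are not all whole, and the fractions were more frequent where a miRNA has several lines. Among values of at least 10 counts, 16.1% of 1866 were not whole for miRNAs with 1 line, 71.2% of 219 for those with 2 lines and 95% of 20 for those with 3 lines (tolerance 0.02). The 2 miR-16-5p lines and miR-195a-5p added up to a whole number in each of the 4 libraries, and so did miR-15a-5p and miR-15b-5p (8138, 5730, 8695 and 6838 counts). miR-15a-5p and miR-15b-5p had fractions in WT B and KO only, and miR-195a-5p in all libraries but 3′F, so the sums bear on the pairs in those libraries alone. There the fractions follow the 2 sequence pairs named above, as they would if a read that matched several lines was split among them. The lines of miR-16-5p differed by only 78, 38, 15 and 54 counts, so each line holds nearly the same number of reads.

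Summed over both lines, miR-16-5p had 21977.66 and 14015.66 counts in the WT libraries, with 22147.34 for KO and 18909 for 3′F, a WT mean of 1258 RPM. Its share of the family is larger on that counting. With 1 line per miRNA, miR-16-5p made up 57.5%, 55.0%, 55.9% and 58.0% of the 4-member total in WT A, WT B, KO and 3′F, miR-15b-5p 38.6%, 41.5%, 39.8% and 38.4%, and miR-15a-5p 3.81%, 3.34%, 4.11% and 3.38%. With both lines summed, miR-16-5p made up 72.9%, 70.9%, 71.7% and 73.4%. The mutants' shares lay within the range of the WT libraries or less than 1 percentage point outside it, and miR-195a-5p held 0.0940% to 0.214% over both countings.

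The 4-member total was slightly lower in both mutants than in either WT library, without a test. With 1 line per miRNA it was 1124 RPM in WT A and 1120 in WT B, against 1038 in the KO and 1010 in the 3′F library, which is 92.5% (KO) and 89.96% (3′F) of the WT mean. WT A and WT B nearly coincided in RPM but not with TMM or DESeq2 scaling. With edgeR's TMM sizes the total was 1278 and 1157 in WT against 1109 in KO and 1154 in 3′F, and with DESeq2 size factors 1141 and 1060 against 1050 and 1039, still below both WT libraries but closer to WT B than WT B was to WT A. With both lines summed the totals were 1766, 1733, 1618 and 1592 RPM, or 92.5% and 91.0% of the WT mean. On the log2(RPM + 1) scale the 1-line total lay at −0.11 in KO and −0.15 in 3′F relative to WT.

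**Figure D2:**
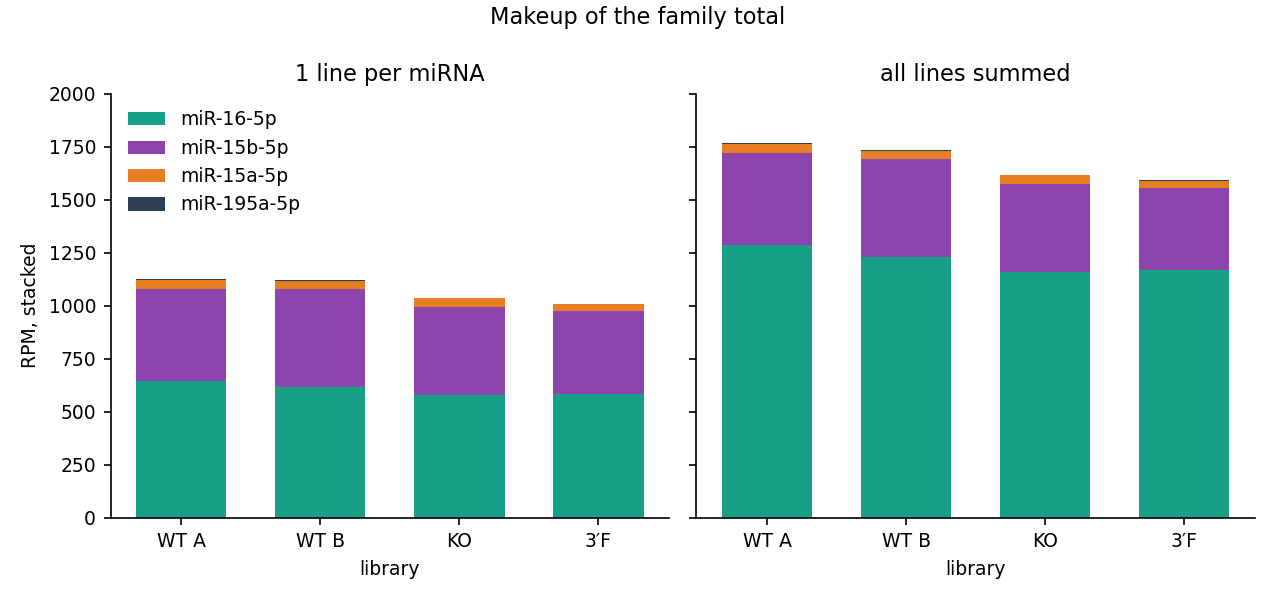
RPM of the 4 members stacked to the family total (vertical axis, from 0) in WT A, WT B, KO and 3′F, with 1 line per miRNA (left) and with all lines summed (right). The totals lie between 1010 and 1124 RPM on the left and between 1592 and 1766 RPM on the right, both mutants below both WT libraries, and the added height on the right is all miR-16-5p.

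Ratios to WT of the single members were small on both sides. Each is a difference of log2(RPM + 1) from the WT mean, in which the added 1 understates the ratio of rare miRNAs. Both mutants share the same WT libraries, so their ratios are given side by side only. miR-16-5p lay at −0.12 in KO and −0.11 in 3′F, while WT B lay at −0.07 relative to WT A. miR-15b-5p lay at −0.12 in KO and −0.21 in 3′F, against a WT difference of 0.10. miR-15a-5p lay at 0.09 in KO and −0.23 in 3′F, against a WT difference of −0.19, and miR-195a-5p at 0.08 and −0.08 against 0.35. For miR-15a-5p in KO and miR-195a-5p in both mutants the value was thus smaller than the difference between the WT libraries, and its sign changed with the WT library that was left out.

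A miRNA was called when it differed 2-fold or more, in 1 direction, from each of the WT libraries, among the 251 miRNAs with a mean of at least 10 RPM, which 3 of the 4 members passed (miR-195a-5p did not). None of the 3 was called in KO, where 3.59% of the 251 were called, or in 3′F, where 0.797% were. For 2 of 3 members in KO (miR-15b-5p and miR-16-5p) and 3 of 3 in 3′F, the value lay below both WT libraries. With TMM sizes these counts were 2 of 3 and 1 of 3, and with DESeq2 size factors 1 of 3 and 2 of 3. Of all 251, 39.4% lay below both WT in KO and 44.2% in 3′F (41.8% and 30.7% with TMM, 33.9% and 31.1% with DESeq2), so a count over 3 members does not set them apart. The median log2 ratio of the 251 was 0.01 in KO and −0.08 in 3′F, and the middle 80 percent of them ran from −0.49 to 0.47 and from −0.37 to 0.21. All 3 members lay inside those ranges. The 5 miRNAs closest in level to miR-16-5p, such as miR-320-3p and miR-361-3p, had ratios from 0.0051 to 0.68 in KO and from −0.18 to 0.28 in 3′F. The 5 closest to miR-15b-5p ran from −0.38 to 0.45 and from −0.03 to 0.53, and the 5 closest to miR-15a-5p from −0.31 to 1.52 and from −0.25 to 0.25. Each member thus lay inside the range of its neighbours in level in 3′F except miR-15b-5p, and in KO except miR-16-5p. Of the 251 ratios, 52, 73 and 70 were smaller in size than those of miR-15a-5p, miR-15b-5p and miR-16-5p in KO, and 169, 160 and 93 in 3′F.

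**Figure D3:**
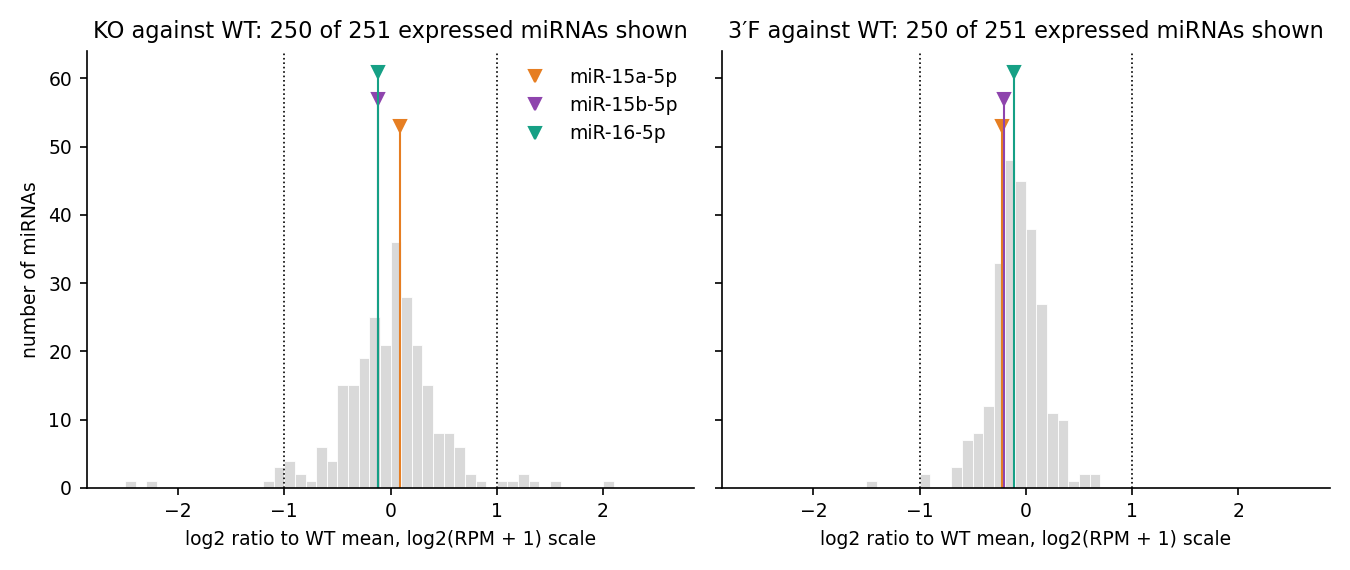
Number of miRNAs (vertical axis) by log2 ratio to WT (horizontal axis, log2(RPM + 1)) in KO and 3′F, for 250 of the 251 miRNAs at a mean of 10 RPM or more (miR-146a-5p lies outside the axis), with a marker for each of the 3 members that passed and dotted lines at 2-fold. The members lie between −0.12 and 0.09 in KO and between −0.23 and −0.11 in 3′F, far from the 2-fold lines, with miR-15a-5p just below the lower quartile of −0.22 in 3′F.

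The 3p strands tell the miR-16 loci apart, and they were very unequal. The strands are shown because they carry the locus-specific reads, with bases 2 to 8 in capitals.
miR-16-1-3p: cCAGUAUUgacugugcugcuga
miR-16-2-3p: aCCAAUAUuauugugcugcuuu
miR-15a-3p: cAGGCCAUacugugcugccuca
miR-15b-3p: cGAAUCAUuauuugcugcucua

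miR-16-1-3p was at 519 RPM in WT A and 435 in WT B, against 472 in the KO and 466 in the 3′F library, both mutants lying between the WT libraries. miR-16-2-3p was at 12.7 and 12.5 RPM in WT, 10.9 in KO and 7.84 in 3′F. The strand from mir-16-1 thus had 41.1 and 34.7 times as many reads as that from mir-16-2 in WT, 43.1 times in KO and 59.4 times in 3′F. This orders the reads of the 3p strands and not the loci, because how many of the shared 5p reads came from each hairpin cannot be told apart.

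Against the 5p strand on its own line, miR-16-1-3p made up 44.6%, 41.4%, 44.8% and 44.3% of the reads of its hairpin in WT A, WT B, KO and 3′F. If every miR-16-5p read of both lines came from mir-16-1, the share would still be 28.7%, 26.2%, 28.9% and 28.5%, so these are its lower limits. Among 177 hairpins with both arms listed and at least 10 RPM on average for the arms together, the minor arm held a median of 1.79% of the reads. Only 6, mir-16-1 included, reached its 43.8% (mean over the 4 libraries, 1 line). At its lower limits more hairpins could reach its share, since 19 reached the 25.6% of mir-15b, which lies below those limits. The 3p strand of mir-16-2 made up 1.93%, 2.01%, 1.85% and 1.33%, and the interval of 3′F (1.12% to 1.58%) did not reach those of the other libraries (lowest bound 1.62%). At mir-16-1 the intervals of WT A (43.9% to 45.3%) and WT B (40.5% to 42.3%) did not overlap either. A gap between counting intervals thus does not by itself mark a mutant. If every miR-16-5p read came from mir-16-2 instead, the share of miR-16-2-3p would be 0.973%, 1.01%, 0.935% and 0.667%, and neither share has an upper limit of this kind. On the 1-line counts the arms were close to equal at mir-16-1 and far apart at mir-16-2.

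In mir-15b the 3p arm held 25.4% and 27.6% of the reads in WT, 25.01% in KO and 23.9% in 3′F, and WT B stood apart, since the intervals of WT A, KO and 3′F (22.97% to 26.2% in all) did not reach that of WT B (26.6% to 28.6%). In mir-15a it held 12.2% and 10.1% in WT, 11.5% in KO and 10.2% in 3′F. The 5p arm prevailed in both, with intervals for mir-15a that overlapped between all 4 libraries. In mir-195a the 3p arm held 54.5% and 46.8% in WT, 37.5% in KO and 38.8% in 3′F, from 19 to 34 counts of the 3p strand, and neither arm prevailed beyond counting error in 3 of the 4 libraries.

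**Figure D4:**
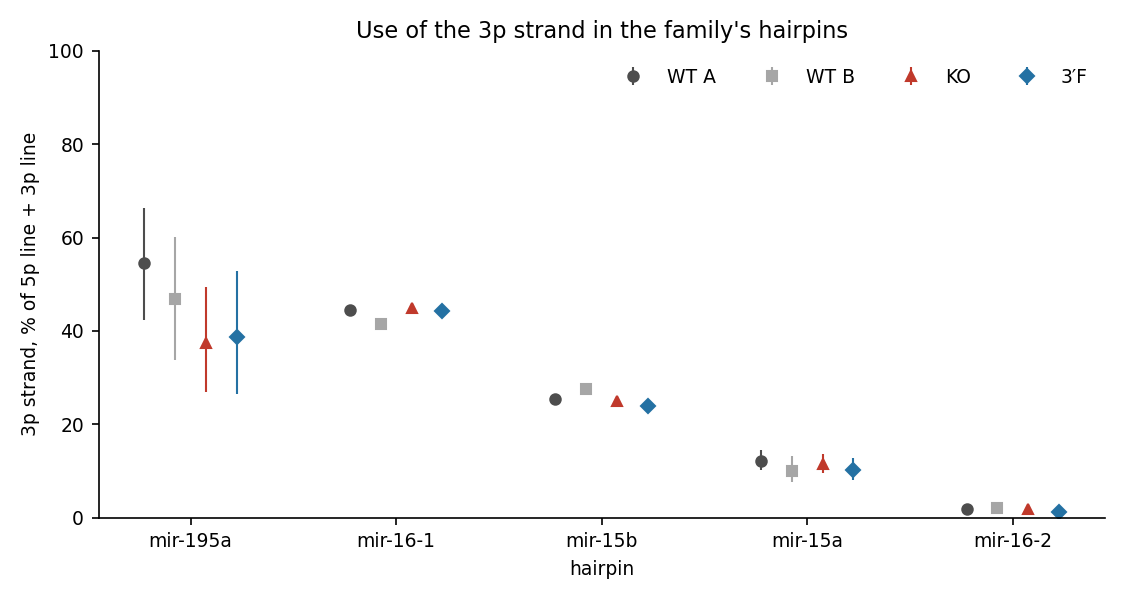
Percent of the reads of each member hairpin that came from its 3p arm in WT A, WT B, KO and 3′F, with 95% Wilson intervals for counting error. mir-16-1 stands at 41.4% to 44.8% and mir-16-2 at 1.33% to 2.01%, where 3′F lies below the other libraries without overlap of the intervals. The intervals of WT A and WT B do not overlap at mir-16-1 or mir-15b either, so such gaps also occur within 1 genotype.

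In 3′F the 3p strand lay further from WT than its 5p partner for every hairpin except mir-16-1. For mir-15a the order turned without WT A (−0.09 for 3p and −0.13 for 5p). The order of mir-16-1 turned too, with 0.10 for 3p and −0.07 for 5p without WT A, and −0.16 and −0.14 without WT B. Its 3p and 5p strands lay at 0.047 and −0.030 with TMM sizes, and at 0.040 and −0.0375 with DESeq2 size factors. The lowest ratios for the expressed strands were at mir-16-2 and mir-15b. miR-16-2-3p lay at −0.62 (log2(RPM + 1) scale) in 3′F and −0.19 in KO, against a WT difference of −0.01, from 216, 143, 209 and 127 counts. Its 95% interval in 3′F (6.59 to 9.33 RPM) lay below those of WT A (11.1 to 14.5) and WT B (10.6 to 14.8). It was the 6th lowest ratio of the 251 in 3′F, yet it was not called at 2-fold. miR-15b-3p was at 147 and 177 RPM in WT, 138 in KO and 122 in 3′F, or −0.23 in KO and −0.41 in 3′F (the 21st lowest there), against a WT difference of 0.26. With either WT library alone its ratio ran from −0.36 to −0.098 in KO and from −0.54 to −0.27 in 3′F. Their partners, miR-16-5p and miR-15b-5p, lay at −0.11 and −0.21 in 3′F, and the difference between arms was not tested, with 1 library.

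Of the Dleu2 locus, miR-16-1-3p lay at −0.01 in KO and −0.03 in 3′F, with a WT difference of −0.25. miR-15a-3p was at 5.97 and 4.21 RPM in WT, 5.55 in KO and 3.89 in 3′F, or 0.12 and −0.30 against a WT difference of −0.42. With either WT library alone its ratio ran from −0.09 to 0.33 in KO and from −0.51 to −0.09 in 3′F. miR-195a-3p was at 1.99 and 2.10 RPM in WT, 1.31 in KO and 1.17 in 3′F, or −0.40 and −0.49, from at most 34 counts. Of the 5 strands 3 lay below both WT libraries in KO and 4 in 3′F (3 in each with TMM or DESeq2 scaling), beside 39.4% and 44.2% of the 251. Only 3 of the 5 are among the 251, and none of these was called, beside 3.59% and 0.797%. All 4 erythroid markers, summed above, likewise lay below both WT libraries in both mutants, and their part in these values was not tested.

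**Figure D5:**
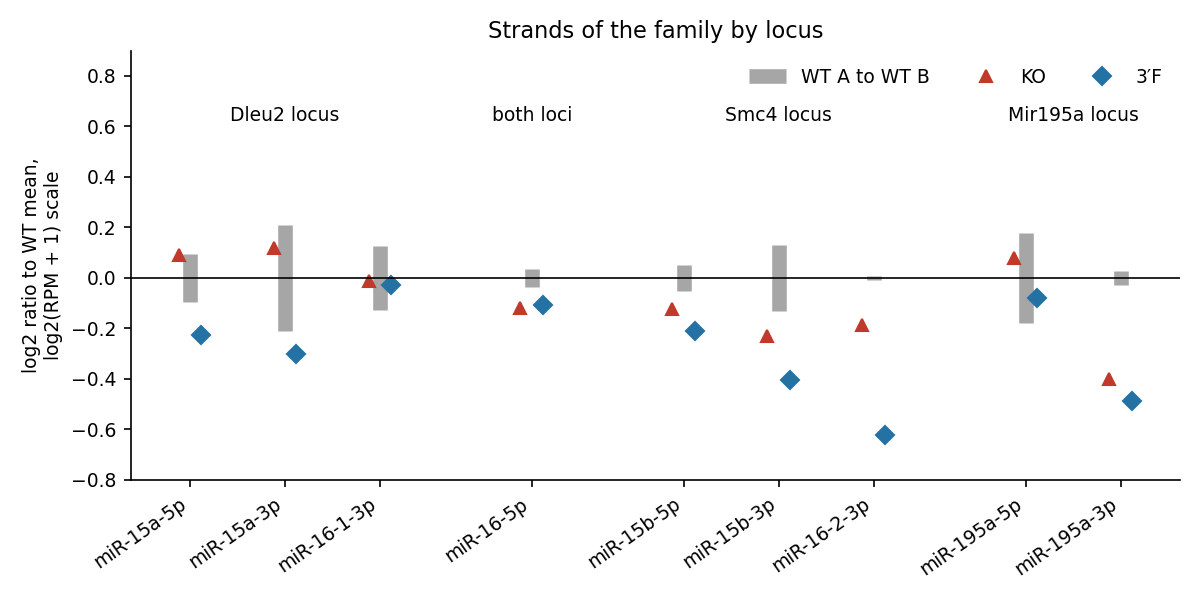
Log2 ratio to the WT mean (vertical axis, log2(RPM + 1) scale) of the 5p and 3p strands, grouped by locus, with triangles for KO, diamonds for 3′F and a grey bar from WT A to WT B. miR-16-2-3p and miR-15b-3p of the Smc4 locus lie at −0.62 and −0.41 in 3′F, and miR-16-1-3p of the Dleu2 locus lies within the WT bar in both mutants.

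The table lists 6 further miRNAs with the seed AGCAGCA. miR-322-5p, which comes from an X-linked cluster with miR-503, was the only one above the minimum, at 71.1 and 62.8 RPM in WT, 68.7 in KO and 59.5 in 3′F. Its ratios, 0.04 in KO and −0.17 in 3′F, were in the range of miR-15a-5p, which it exceeded in level in every library. miR-497a-5p, encoded beside miR-195a, was at 0.700, 0.960, 1 and 0.490 RPM (8 to 19 counts). miR-195b, miR-6342, miR-6353 and miR-6419 were listed at 0 in all libraries, which allows up to 0.176, 0.263, 0.157 and 0.185 RPM each. The whole seed summed to 1196 and 1184 RPM in WT, 1108 in KO and 1070 in 3′F, rank 33, 35, 36 and 35 of 1398 seeds, or rank 24, 27, 26 and 24 with lines summed.

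miR-503-5p, with the related seed AGCAGCG, was at 88.4 and 90 RPM in WT, 105 in KO and 88.0 in 3′F. It lay above both WT libraries in KO (0.23) and at −0.02 in 3′F. In mir-322, unlike mir-15a, mir-15b, mir-16-1 and mir-16-2 on the 1-line counts, the 3p strand prevailed, with miR-322-3p at 255 and 282 RPM in WT, 309 in KO and 291 in 3′F.

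Other miRNAs known to act on the cell cycle were compared as a list of 21, including let-7, miR-34, miR-17 and miR-221 family members, of which 19 passed the minimum. None was called higher in either mutant, beside 1.99% (KO) and 0% (3′F) of the 251. In KO 1 was called lower, beside 1.59% of the 251, and in 3′F none was, beside 0.797%. The 1 was miR-34c-5p, a p53-induced miRNA, at 193 and 180 RPM in WT, 34.5 in KO and 147 in 3′F. The median ratio of the 19 was −0.19 in KO and −0.13 in 3′F, beside 0.01 and −0.08 for all 251, and 11 of the 21 lay below both WT libraries in each mutant, with 5 above both in KO and 2 in 3′F. Of the 251, which do not include 2 of the 21, 39.4% and 44.2% lay below both and 37.8% and 22.7% above both. miR-17-5p, of the proliferation-promoting miR-17 cluster, was at 888 and 1030 RPM in WT, 714 in KO and 640 in 3′F. let-7b-5p, which acts against cell growth, was at 1223 and 1483 RPM in WT, 1855 in KO and 1272 in 3′F. In KO the former lay below and the latter above both WT libraries, both short of 2-fold. This pair does not stand for the list. Like miR-34c-5p, miR-34b-5p, miR-449a-5p and miR-29b-3p lay below both WT libraries in KO, while miR-24-3p and miR-25-3p lay between them. Whether the list moved by role in the cell cycle was not tested.

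The miRNAs whose pattern was most like that of miR-16-5p were found by the smallest Euclidean distance over the 4 libraries, on log2(RPM + 1) centred on the WT mean. The search covered the 247 miRNAs with a mean of at least 10 RPM and another seed, so it left out the other members and miR-322-5p. miR-872-3p was nearest (distance 0.041), followed by miR-17-3p (0.055), miR-151-5p (0.069), miR-30b-3p (0.092) and miR-3473h-5p (0.096). Set against these 247 by distance, miR-15b-5p would take place 10 (0.157) and miR-15a-5p place 60 (0.257). The family member that shares the Dleu2 locus with miR-16-1 was thus further from miR-16-5p than the member beside mir-16-2. Over 4 libraries such distances describe small differences only.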

How the data were processed

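Small RNA libraries (NEBNext kit, size selected) were made from resting BMDMs, and adapters were removed with cutadapt 1.8.3 per the labels. The aligner, counter, mismatch allowance, genome build and miRNA release are not given in the sources used here. The values deposited by the authors are estimated counts, with fractions that behave as reads divided over several lines, and RPM, each count per 1000000 of the sum over all 2129 lines of its library. All sample columns were used.

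From these values 1 line per mature miRNA was kept (1979 miRNAs). Calls were made among the 251 whose RPM averaged 10 or more across libraries. Ratios are differences of log2(RPM + 1) from the WT mean, and the call needed at least a 2-fold change from each WT library. With 1 library per mutant, no p-value was computed. The 95% Wilson intervals were computed from their formula, which was checked against scipy 1.17.1. Sizes of libraries for alternative scalings came from edgeR 4.0.16 on unrounded counts and from DESeq2 1.42.0 on rounded counts. The ratio script was tested on simulated data. The named miRNAs are the members, their 3p strands, all listed miRNAs with their seed, miR-503-5p, a cell cycle list, cell type markers, and the miRNAs nearest in level or pattern. The members and lists were chosen with earlier results of these data known.

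Sequences were matched by miRNA name to RefSeq (1679 of 1979 names found) and hairpins by gene name to GENCODE vM21. Other scalings, pseudocounts, minimums, folds, line choices and each WT library left out were tried.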

Additional observations from a re-analysis of the deposited data

How the results depend on the processing

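Of 168 values under other settings, 130 moved by less than the WT spread (counts of calls by at most 1.5 times) and 38 moved by more. No member was called under any scaling, line choice, lower minimum or omission of a WT library that was run, nor at 1.5-fold. The log2 ratios of miR-15b-5p and miR-16-5p stayed negative in both mutants, and those of miR-15a-5p in 3′F too. The sign changed for miR-15a-5p in KO (−0.0049 to 0.19), miR-195a-5p in KO (−0.10 to 0.26) and miR-195a-5p in 3′F (−0.25 to 0.10), each with the WT library left out, and all scalings moved the median of the 251 by under 0.1. Among the 3p strands, for which these settings were chosen after seeing the data, miR-16-2-3p ranged from −0.68 to −0.56 and miR-15b-3p from −0.54 to −0.27 in 3′F. The ratio of miR-16-1-3p took both signs in both mutants, and that of miR-15a-3p in KO. The places against both WT libraries under other scalings, given with the results, were also added after seeing the data. Each mutant rests on 1 library, miR-195a-5p on 27.33 to 41.67 counts, and which locus a miR-16-5p read came from cannot be told apart.

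With edgeR's TMM scaling, miR-15b-5p in 3′F was −0.13, miR-16-5p in 3′F −0.030, the family total −0.13 in KO and −0.076 in 3′F, and the WT means of miR-15b-5p and miR-16-5p 486.5 and 685.1. With DESeq2 size factors, miR-16-5p in 3′F was −0.0375 and the total −0.067 in KO and −0.083 in 3′F. With miR-21a-5p left out of the total, miR-16-5p in KO was −0.18, the family total −0.17 in both mutants, the WT means 62.9 (15a), 702.1 (15b), 987.6 (16) and 3.15 RPM (195a), and 14 miRNAs were called in KO. With RPM over 1 line per miRNA, the total in KO was −0.10 and the WT means of 15b and 16 were 490.3 and 688.3 RPM. With the lowest line the total in KO was −0.11. With lines summed, the total in 3′F was −0.14, miR-16-5p had a WT mean of 1258 RPM, the WT shares were 2.29% (15a), 25.7% (15b), 71.9% (16) and 0.116% (195a), and log2 of 5p over 3p was 1.40 for mir-16-1 and 6.64 for mir-16-2. The number called in KO, 9, became 17 at a minimum of 1 RPM, 3 at 100 RPM, 27 at 1.5-fold and 4 at 3-fold, and 15 and 13 without WT A and WT B. The number called in 3′F, 2, became 3 at a minimum of 1 RPM, 1 at 100 RPM, 6 at 1.5-fold and 1 at 3-fold, and 2 and 5 without WT A and WT B. The cause of these shifts was not tested. No paired analysis was possible because neither mutant has more than 1 library.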
